A study of Mus musculus with 8 samples.

Results

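The genes described here encode the cell-surface proteins with which T cells break down and sense extracellular ATP, adenosine and NAD. They are Entpd1 (CD39), Nt5e (CD73), Cd38, P2rx7, P2rx4 and Adora2a (an adenosine receptor that raises cyclic AMP). They were taken by symbol, and all 6 were among the 11723 genes of the deposited table and among the 11530 genes tested. CD8 T cells had been sorted from BALB/c mice at 12 days of age, and total RNA was sequenced; the sample labels give peripheral lymph nodes as the tissue, and the series' design text adds the spleen. WT mice gave 4 libraries and IL-2-KO mice, which lack interleukin-2, gave 4. Each WT library was a pool of 5, 5, 3 and 2 mice for replicates 1 to 4, whereas pooling is not stated for IL-2-KO, and that text allows heterozygous mice among the controls. The labels give 115, 28.7, 1.3 and 1.3 M (mega) cells for WT replicates 1 to 4, and 26.7, 42.6, 1.1 and 0.4 M cells for IL-2-KO replicates 1 to 4, so replicates 1 and 2 of both groups had many cells and replicates 3 and 4 had few.

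ATP leaves activated, stressed or dying cells and acts as a danger signal. CD39 cuts ATP and ADP to AMP, and CD73 cuts AMP to adenosine, which signals through the Adora2a receptor, raises cyclic AMP and restrains T cells. P2X7 and P2X4 are cation channels opened by ATP, and prolonged opening of P2X7 can kill a T cell. CD38 consumes NAD, and in mouse T cells the ectoenzyme ART2.2, encoded by Art2b, uses NAD to modify and open P2X7. IL-2 is a growth factor of T cells on which regulatory T cells depend, and its loss in mice leads to autoimmunity.

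Values are CPM (read counts divided by the TMM-scaled library size in M), the scale the authors deposited. Depths ran from 11.9 M counts in WT replicate 2 to 18.4 M in IL-2-KO replicate 3, so a value of 1 stood for 11.9 to 18.6 reads. CD8 T cell markers (7 of 7 listed, 1 of them lower) summed to 5631 to 6577 CPM in WT and 4907 to 5732 CPM in IL-2-KO. Of these, Thy1 was at 923 to 1004 CPM in WT and at 640 to 703 CPM in IL-2-KO. Il2 was listed at 5.88 ± 0.268 CPM (SD, n = 4) in WT and 6.28 ± 1.92 in IL-2-KO, a value summed over the gene, which cannot check a deletion of some of its exons. WT replicate 2 and IL-2-KO replicate 3 stood apart by transcripts of other cells. Summed dendritic cell markers (6 of 10 listed) reached 282 and 666 CPM in them, whereas the remaining libraries had 8.0 to 13.7 CPM in WT and 17.0 to 43.4 CPM in IL-2-KO. The monocyte gene Lyz2 was at 39.97 and 296 CPM in them and at 2.85 or less in the others, and Cd4 was at 38.6 and 45.5 against 2.48 or less.

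The upstream sequences of 5 of the 6 genes were found in RefSeq (GRCm38.p6). Shown here are the 250 bases before a listed start of the 3 ectoenzyme genes, which rose, and of the neighbouring genes P2rx7 and P2rx4, which did not. For P2rx4 the listed start lies just inside the annotated span. All lie on the plus strand and are written 5′ to 3′. Capitals mark matches, on either strand, to the AP-1 site TGANTCA or the GC box GGGCGG.
Entpd1, chr19:40612116-40612365: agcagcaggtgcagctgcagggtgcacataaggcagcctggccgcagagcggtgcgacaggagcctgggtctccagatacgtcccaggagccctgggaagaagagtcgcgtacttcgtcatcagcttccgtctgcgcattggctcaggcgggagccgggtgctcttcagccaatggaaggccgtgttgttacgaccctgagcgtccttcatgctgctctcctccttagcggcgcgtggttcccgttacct
Nt5e, chr9:88327359-88327608: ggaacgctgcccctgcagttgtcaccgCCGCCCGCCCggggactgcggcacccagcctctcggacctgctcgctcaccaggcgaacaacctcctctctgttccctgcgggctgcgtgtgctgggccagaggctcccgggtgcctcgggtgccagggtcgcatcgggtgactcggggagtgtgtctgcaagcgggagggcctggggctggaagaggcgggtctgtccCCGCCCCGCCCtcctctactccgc
Cd38, chr5:43868559-43868808: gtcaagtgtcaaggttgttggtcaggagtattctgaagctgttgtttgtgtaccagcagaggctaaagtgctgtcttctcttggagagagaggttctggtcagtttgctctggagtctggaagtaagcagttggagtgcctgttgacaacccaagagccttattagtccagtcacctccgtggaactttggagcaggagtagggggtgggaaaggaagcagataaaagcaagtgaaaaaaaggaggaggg
P2rx7, chr5:122643677-122643926: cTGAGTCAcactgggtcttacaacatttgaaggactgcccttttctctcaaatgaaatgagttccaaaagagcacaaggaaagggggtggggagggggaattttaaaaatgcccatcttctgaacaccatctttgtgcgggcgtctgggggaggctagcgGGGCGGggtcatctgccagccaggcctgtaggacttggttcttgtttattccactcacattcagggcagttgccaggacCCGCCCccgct
P2rx4, chr5:122707294-122707543: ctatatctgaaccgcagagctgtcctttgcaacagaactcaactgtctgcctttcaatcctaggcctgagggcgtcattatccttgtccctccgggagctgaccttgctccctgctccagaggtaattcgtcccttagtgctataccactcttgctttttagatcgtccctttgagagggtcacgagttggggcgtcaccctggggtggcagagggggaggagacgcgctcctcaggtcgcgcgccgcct

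The letters of these windows differed between the genes. The palindromic STAT site TTCNNNGAA, a form bound by STAT proteins such as those downstream of the IL-2 receptor, matched none of the 7 windows listed for these genes, and it was present in 7.02% of 32851 promoter windows of that length. The cyclic AMP response element TGACGTCA matched none either (1.55% of all windows). The GC box matched 4 times before Nt5e, where adjacent matches overlap, and 2 times before P2rx7 (32.7% of all windows hold it). The AP-1 site matched once, before P2rx7 (6.75% of all windows). Entpd1 and P2rx7 each have a further listed start, and the table's value per gene does not tell starts or isoforms apart. A match describes letters only.

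The IL-2-KO against WT comparison asks how CD8 T cells of mice without IL-2 differ from those of WT mice. The 3 ectoenzyme genes rose, the adenosine receptor gene Adora2a rose, P2rx4 fell, and P2rx7, by level the highest of the 6, did not pass the test. In a bulk sample a change in the number of cells of a type and a change in RNA per cell cannot be told apart. In all, 5 of the 6 genes passed (limma, p adjusted by Benjamini-Hochberg, threshold 0.05), 4 higher and 1 lower. Among all genes tested 19.2% passed, 11.1% higher and 8.03% lower. That balance depended on the scaling: 58.1% of the calls were higher here, 51.6% after a median shift and 48.9% after quantile normalization, while the same 5 members passed under both. The genes were chosen with earlier results of these data known, so the share among them is a description. Their median log2 change was 0.82, against -0.01 over all genes tested. The IL-2-KO and WT values did not overlap for the same 5 genes, 4 higher and 1 lower, and for 24.2% of all genes tested, 12.9% higher and 11.2% lower. The count over all genes, 2211, was 1285 without WT replicate 3 and 1351 without WT replicate 4, but the same 5 genes passed without either.

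**Figure D1:**
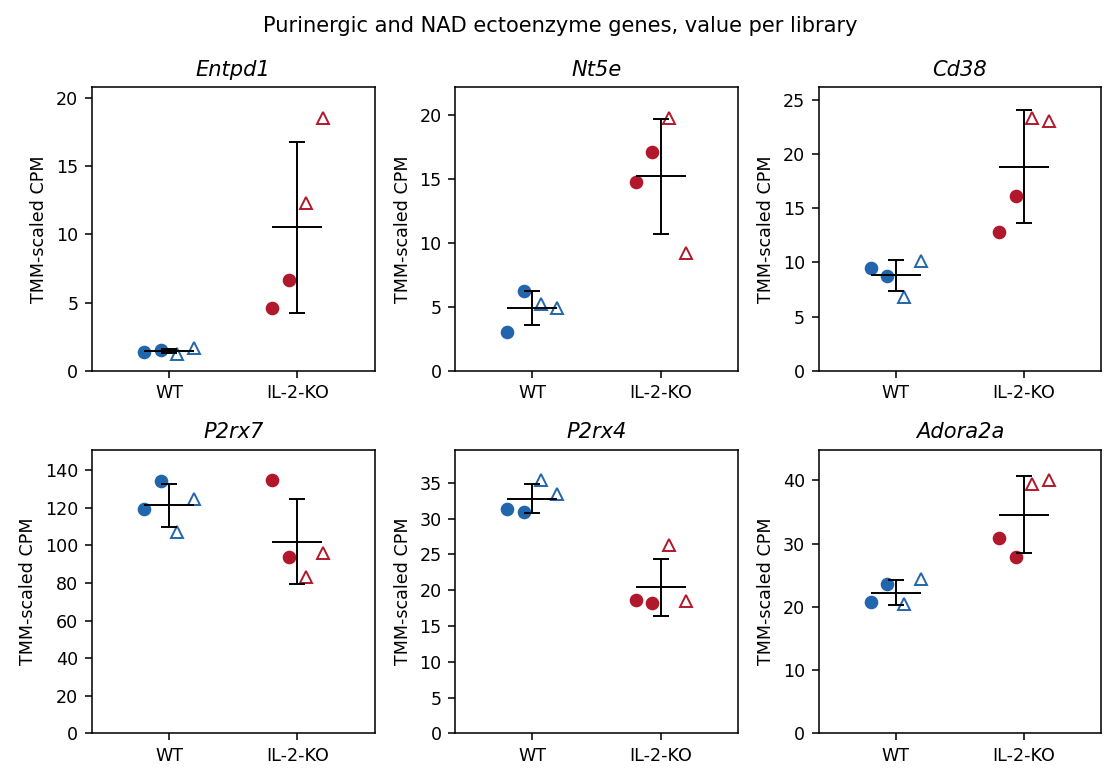
TMM-scaled CPM of the 6 genes in each library (y axis, linear, from 0; blue WT, red IL-2-KO; filled circles replicates 1 and 2, open triangles replicates 3 and 4), with black bars at the mean ± SD of 4 libraries. Entpd1, Nt5e, Cd38 and Adora2a have all IL-2-KO points above all WT points, P2rx4 has them all below, and P2rx7 overlaps.

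Entpd1 (Entrez 12495, GRCm38 chromosome 19, 40612366 to 40741602) encodes CD39, the enzyme that takes ATP and ADP to AMP. It was at 1.41, 1.52, 1.21 and 1.63 CPM in WT replicates 1 to 4, and at 4.62, 6.63, 12.3 and 18.6 CPM in IL-2-KO replicates 1 to 4. The WT values, 18 to 27 reads, were close together, whereas the IL-2-KO values, 69 to 332 reads, spanned a wide range above them. Entpd1 rose 5.03-fold on the log2(value + 0.5) scale, where the changes of low genes come out too small (log2 change 2.33 ± 0.36 SE; limma adjusted p = 0.00155, Benjamini-Hochberg). It had rank 63 of 11530 when genes were ordered from the largest rise.

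Nt5e (Entrez 23959, chromosome 9, 88327609 to 88372089) encodes CD73, which turns the AMP left by CD39 into adenosine. It was at 3.05, 6.24, 5.25 and 4.94 CPM in WT and at 14.7, 17.1, 19.8 and 9.22 CPM in IL-2-KO. IL-2-KO replicate 4, where Entpd1 was highest, had the lowest Nt5e value of its group, still above each WT library. Nt5e rose 2.90-fold (log2 change 1.54 ± 0.26 SE; limma adjusted p = 0.00255, Benjamini-Hochberg).

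The ratio of the enzymes in sequence varied more among IL-2-KO libraries than among WT. The log2 ratio of Entpd1 to Nt5e was -0.90, -1.74, -1.75 and -1.36 in WT and -1.57, -1.31, -0.66 and 0.97 in IL-2-KO. The group means, -1.44 ± 0.40 and -0.64 ± 1.14 (SD, n = 4), overlapped. Their difference of 0.79 did not pass an exact two-sided permutation test over 70 assignments (p = 0.200, and 0.229 adjusted over 2 ratios). With 70 assignments, neither ratio could pass after adjustment over 2 ratios unless both did, even with groups that did not overlap. The test therefore cannot decide whether the balance shifted towards either enzyme.

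Cd38 (Entrez 12494, chromosome 5, 43868809 to 43912374) encodes the main NAD-consuming ectoenzyme of lymphocytes. It was at 9.46, 8.78, 6.84 and 10.2 CPM in WT and at 12.8, 16.1, 23.4 and 23.1 CPM in IL-2-KO. All IL-2-KO values were above the WT values, the nearest pair being IL-2-KO replicate 1 and WT replicate 4. Cd38 rose 2.04-fold (log2 change 1.03 ± 0.21 SE; limma adjusted p = 0.00679, Benjamini-Hochberg). Some of its reads were counted as fractions, since none of its 8 values was whole reads.

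Adora2a (Entrez 11540, chromosome 10, 75316877 to 75334792) encodes the receptor that couples adenosine to cyclic AMP. It was at 20.7, 23.6, 20.4 and 24.4 CPM in WT and at 30.8, 27.9, 39.4 and 40.03 CPM in IL-2-KO. The lowest IL-2-KO value was above the highest WT value. Adora2a rose 1.53-fold (log2 change 0.61 ± 0.13 SE; limma adjusted p = 0.0104, Benjamini-Hochberg), the smallest rise of the 4. It had whole reads in all 8 libraries, from 280 to 733.

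P2rx4 (Entrez 18438, chromosome 5, 122707518 to 122729739) encodes an ATP-gated channel and was the gene that fell. It was at 31.4, 30.9, 35.4 and 33.4 CPM in WT and at 18.6, 18.2, 26.3 and 18.5 CPM in IL-2-KO. Of the IL-2-KO libraries 3 lay within 18.2 to 18.6, and replicate 3, with the dendritic cell and monocyte transcripts, stood above them and below all WT libraries. The log2 change was -0.69 ± 0.13 SE (limma adjusted p = 0.00478, Benjamini-Hochberg), 1.61-fold lower. In RefSeq its last 11360 bases overlap the annotated span of Camkk2, a kinase gene on the minus strand. The Camkk2 exons of protein-coding GENCODE transcripts do not reach P2rx4. They begin 87.2 kb past the P2rx7 start, and P2rx4 ends at 85.8 kb. Camkk2 itself was at 43.3 ± 4.07 CPM in WT and 36.4 ± 3.09 in IL-2-KO (limma adjusted p = 0.106). P2rx4 had whole reads in only 1 library, IL-2-KO replicate 1, with 277. The remaining libraries had fractions of reads, such as 523.79 in WT replicate 1 and 302.33 in IL-2-KO replicate 2. The cause of these fractions was not tested. The GENCODE exons given here need not be the features that were counted. The library kit was stranded, but the strand setting of the counting is not stated. The part of Camkk2 reads in the P2rx4 values was not tested.

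P2rx7 (Entrez 18439, chromosome 5, 122643927 to 122692336) encodes the channel through which high extracellular ATP, or NAD by way of ART2.2, acts on T cells. It was at 119, 134, 107 and 125 CPM in WT and at 135, 94.0, 83.0 and 95.9 CPM in IL-2-KO. IL-2-KO replicate 1 was as high as the highest WT library, and the other IL-2-KO libraries were below all WT libraries. The log2 change was -0.27, with a 95% interval from -0.58 to 0.04, and did not pass (limma adjusted p = 0.201, Benjamini-Hochberg). Without IL-2-KO replicate 1 it was -0.41 and passed (adjusted p = 0.0167), so the call depends on that library.

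**Figure D2:**
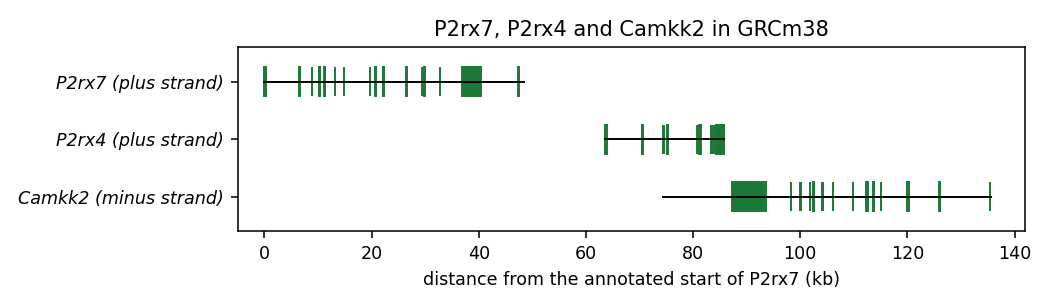
P2rx7, P2rx4 and Camkk2 by distance from the annotated start of P2rx7 (x axis, kb; GRCm38), with RefSeq gene spans as lines and the joined GENCODE exons of protein-coding transcripts as green boxes. P2rx7 and P2rx4 follow each other on the plus strand, 15181 bases apart, and the Camkk2 span, on the minus strand, reaches back over the end of P2rx4. The Camkk2 exons drawn begin at 87.2 kb, past the last P2rx4 exon, which ends at 85.8 kb.

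The neighbouring channel genes were also set against each other within libraries, a ratio that does not depend on library scaling. The log2 ratio of P2rx7 to P2rx4 was 1.91, 2.10, 1.59 and 1.88 in WT and 2.83, 2.34, 1.64 and 2.34 in IL-2-KO. The groups overlapped, and the difference of 0.42 did not pass the exact two-sided permutation test (p = 0.229, also 0.229 adjusted over 2 ratios). Only IL-2-KO replicate 3, the library richest in dendritic cell and monocyte transcripts, had a ratio within the WT range. Without that library the groups did not overlap, and the difference was 0.63 (exact permutation test, adjusted p = 0.0571). Leaving out each library in turn gave differences of 0.24 to 0.63, and none passed. As for the enzymes, neither ratio could pass unless both did. The test therefore cannot decide whether the channel genes changed relative to each other.

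Per kilobase of exon, P2rx7 was the highest of the 6 genes in both groups, at 22.0 ± 2.04 CPM per kb in WT and 18.4 ± 4.09 in IL-2-KO (SD, n = 4). In WT P2rx4 followed with a level of 12.1 ± 0.758 CPM per kb, then Adora2a with 7.27 ± 0.656, Cd38 with 2.69 ± 0.437, Nt5e with 1.22 ± 0.333 and Entpd1 with 0.331 ± 0.0411. In IL-2-KO the level of Adora2a, 11.3 ± 1.99 CPM per kb, stood above that of P2rx4, 7.55 ± 1.47. The enzymes followed, with Cd38 at a level of 5.76 ± 1.604, Nt5e at 3.81 ± 1.13 and Entpd1 at 2.42 ± 1.44 CPM per kb. In IL-2-KO the SDs of Cd38 and Nt5e overlap, as do those of Nt5e and Entpd1, and in replicate 4 Entpd1 was above Nt5e per kb. In WT both channel genes were above all 3 enzyme genes, whereas in IL-2-KO the levels of P2rx4 and Cd38 overlapped within their SDs.

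Within the IL-2-KO group Entpd1, Cd38 and Adora2a were higher in replicates 3 and 4, with few cells, than in replicates 1 and 2. In replicates 1 and 2 Entpd1 averaged 1.46 CPM in WT and 5.63 in IL-2-KO, a ratio of 3.85, and in replicates 3 and 4 it averaged 1.42 and 15.4, a ratio of 10.9. The corresponding ratios were 1.58 and 2.73 for Cd38, 1.33 and 1.78 for Adora2a, 3.43 and 2.85 for Nt5e, 0.591 and 0.652 for P2rx4 and 0.903 and 0.772 for P2rx7. Each direction was thus the same in both sets of libraries. The difference between the sets, an interaction term added after the values were seen, was 1.41 ± 0.42 SE on the log2 scale for Entpd1 (limma unadjusted p = 0.00935, adjusted p = 0.9999). For Cd38 it was 0.80 ± 0.31 SE (unadjusted p = 0.0350). The limma unadjusted p was 0.0844 for Adora2a, 0.450 for P2rx7, 0.480 for Nt5e and 0.656 for P2rx4. By limma 0 of 11530 genes passed that interaction (0% called) and 193 (1.67%) had an unadjusted p under 0.05. Cell number and replicate number cannot be told apart. In replicates 1 and 2 alone Entpd1 and Nt5e passed, and Cd38 (adjusted p = 0.275), P2rx4 (0.0754) and Adora2a (0.412) did not.

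Other cells of a lymph node also carry these proteins: CD39 and CD73 are found on regulatory T cells, and CD39 and CD38 on B cells and myeloid cells. The regulatory T cell gene Foxp3 was at 3.92 to 4.49 CPM in WT and at 2.69 to 3.56 CPM in IL-2-KO. Summed CD4 and regulatory T cell markers (7 of 7 listed, 1 of them higher) ranged from 23.9 to 112 CPM in WT and from 78.2 to 273 in IL-2-KO, and the higher gene was Ctla4, which activated CD8 T cells also express. B cell markers (3 of 9 listed, none called) ranged from 15.7 to 26.2 CPM in WT and 12.3 to 36.2 in IL-2-KO. Macrophage and monocyte markers (4 of 9 listed, none called) ranged from 88.8 to 179 CPM and from 78.3 to 488. Plasma cell markers (2 of 6 listed, none called) ranged from 36.8 to 50.3 and from 42.5 to 60.9.

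The members differed in how they ran with those transcripts. Nt5e and Cd38 had their highest IL-2-KO values, 19.8 and 23.4 CPM, in replicate 3, the library richest in dendritic cell and monocyte transcripts, and Nt5e had its highest WT value, 6.24 CPM, in WT replicate 2. Cd38 was nearly as high, at 23.1 CPM, in IL-2-KO replicate 4. In WT replicate 2 Cd38, at 8.78 CPM, was below WT replicates 1 and 4. The part of other cells' transcripts in the Nt5e and Cd38 values was not tested. Entpd1 was highest in IL-2-KO replicate 4, at 18.6 CPM, with Lyz2 at 1.34, Cd74 at 3.97 and Cd4 at 0.978 CPM. In IL-2-KO replicate 3 it was next, at 12.3 CPM, with Lyz2 at 296 CPM. WT replicate 2 had Lyz2 at 39.97 and Entpd1 at 1.52 CPM. The part of other cells' transcripts in the Entpd1 values was not tested. With both of the libraries that stood apart removed the same 5 genes passed, with log2 changes of 2.22 for Entpd1, 1.52 for Nt5e, 0.91 for Cd38, 0.57 for Adora2a and -0.84 for P2rx4. Natural killer cell markers (6 of 7 listed) were higher for 4 genes, and their sum ranged from 372 to 459 CPM in WT and from 734 to 1018 in IL-2-KO. Most of that sum was Nkg7 and Eomes, with Gzma in IL-2-KO (2.07 to 5.48 CPM in WT, 99.6 to 184 in IL-2-KO), which effector CD8 T cells express too. Klrb1c was at 0.499 to 2.81 CPM in WT and 1.22 to 2.53 in IL-2-KO. Klre1 was at 0.576 to 3.12 CPM in WT and at 2.01, 4.70, 5.91 and 13.1 CPM in IL-2-KO replicates 1 to 4, highest in the replicate where Entpd1 was highest. Of 2 listed gamma-delta T cell markers out of 6, Cd163l1 was higher, and their sum ranged from 31.6 to 72.1 CPM and from 96.7 to 106. Stromal and endothelial markers (4 of 10 listed) ranged from 193 to 219 and from 178 to 207, neutrophil markers (1 of 7 listed) from 0.241 to 6.07 and from 0.503 to 5.38, and erythroid markers (4 of 6 listed) from 14.7 to 94.9 and from 9.76 to 43.5 CPM, with none called in these 3 lists. The part of natural killer or gamma-delta T cells in the rises was not tested.

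The remaining receptors for nucleotides and adenosine were at low levels or not listed. Of 15 such genes 4 were tested, and none passed limma (0 at an unadjusted p under 0.05 as well). P2rx3, P2rx5 and P2rx1, channels of the same family as P2X7, were at 0.990 ± 0.368, 0.868 ± 0.366 and 1.11 ± 0.526 CPM in WT and at 1.45 ± 0.454, 1.24 ± 0.232 and 0.993 ± 0.543 in IL-2-KO. Adora3, another adenosine receptor gene, was at 2.10 ± 0.554 and 2.09 ± 0.509 CPM. P2rx7, P2rx4 and Adora2a were thus the receptor genes of the set with more than a few CPM.

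Among genes that handle nucleotides and adenosine inside the cell or at its surface, 5 of 22 tested rose, 2 fell and 15 did not pass, with a median log2 change of -0.09. Over all genes tested 11.1% rose and 8.03% fell, with a median of -0.01, and the counts of this list and of those that follow are set against these shares as a description. Slc29a1, which encodes the equilibrative nucleoside transporter ENT1, rose 1.33-fold, from 46.4 ± 2.97 to 62.1 ± 4.504 CPM (limma adjusted p = 0.00665). Adk, the kinase that returns adenosine to AMP inside cells, rose 1.30-fold, from 46.0 ± 2.43 to 59.8 ± 3.80 CPM. Ampd3, an AMP deaminase gene, fell by 0.50 on the log2 scale, from 31.4 ± 3.55 to 21.9 ± 1.27 CPM. The groups of these 3 genes did not overlap, and none of the 3 passed in replicates 1 and 2 alone, a fit with 2 libraries per group in which the log2 changes were 0.33 for Slc29a1, 0.42 for Adk and -0.40 for Ampd3.

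In the list of ATP release and P2X7 responses 6 of 14 tested genes rose, 2 fell and 6 did not pass, with a median log2 change of 0.32, where 19.2% of all genes passed. Slc17a9, which encodes the transporter that loads ATP into vesicles, fell by 1.29 on the log2 scale. Its WT values of 182, 182, 179 and 182 CPM lay close together, and its IL-2-KO values were 87.9, 70.1, 83.1 and 58.0 CPM (limma adjusted p = 0.000102). The inflammatory caspase genes Casp1 and Casp4 rose from 0.739 ± 0.886 to 13.6 ± 7.36 CPM and from 0.783 ± 1.05 to 15.1 ± 9.77 CPM. Plscr1, an interferon-induced phospholipid scramblase gene, rose 6.34-fold, from 1.10 ± 0.474 to 9.84 ± 4.09 CPM. Each of these 3 genes had WT libraries under 1 CPM. They met the filter of at least 1 CPM in 4 of 8 libraries only with the IL-2-KO libraries. For these 3 genes IL-2-KO replicate 3, with the dendritic cell and monocyte transcripts, had the highest value, and the other IL-2-KO libraries were also above all WT libraries, with 9.28 to 10.9 CPM for Casp1.

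**Figure D3:**
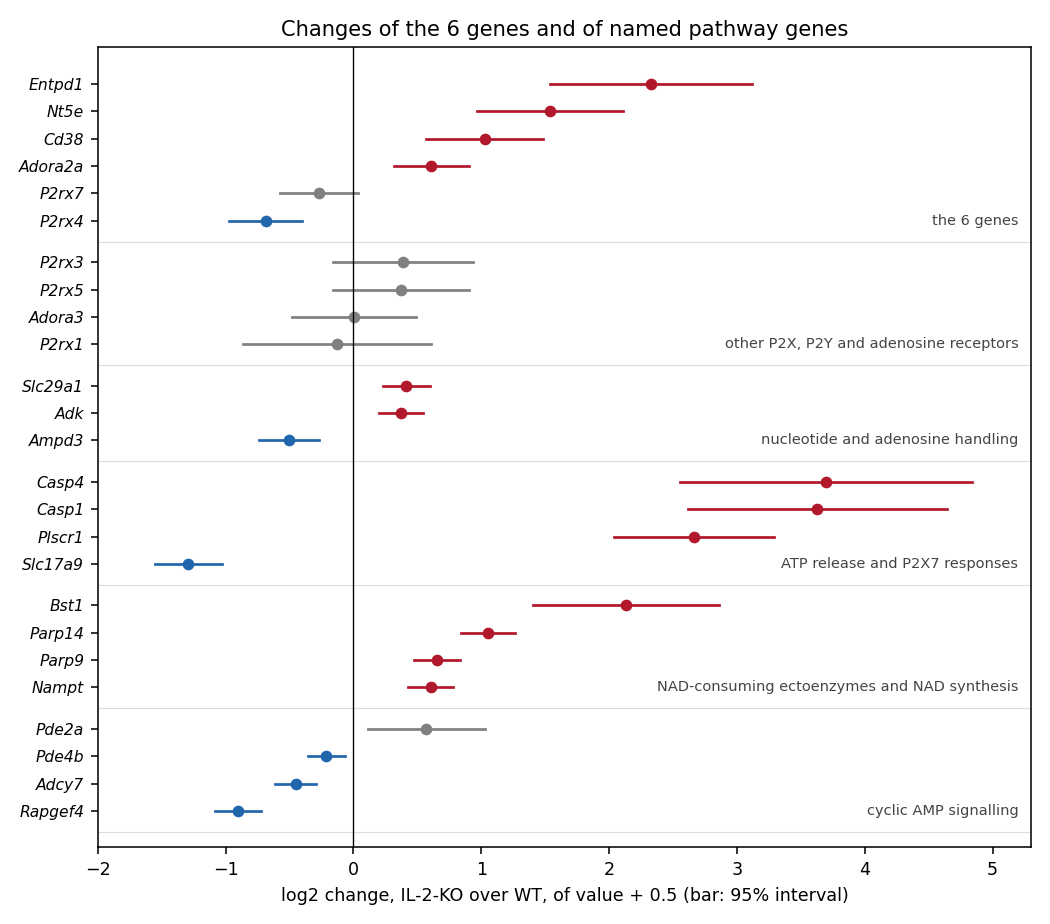
Log2 change from WT to IL-2-KO of value + 0.5 (x axis; points, with bars for the 95% interval of limma) for the 6 genes and for the genes named from each pathway list; red rose, blue fell, grey did not pass. The largest changes of the named genes are those of Casp4 and Casp1, whose WT levels are under 1 CPM on average.

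Among genes that consume or make NAD, 5 of 24 tested rose, 1 fell and 18 did not pass, with a median log2 change of 0.02, where 19.2% of all genes passed. Bst1, which encodes CD157, a relative of CD38 whose gene lies 25340 bases before Cd38 on chromosome 5, was at 0.235, 0.691, 0.208 and 0.210 CPM in WT and at 1.93, 2.22, 5.94 and 3.33 CPM in IL-2-KO. It rose 4.39-fold (limma adjusted p = 0.00163), from 3 to 8 reads per WT library and 29 to 110 reads per IL-2-KO library. All WT values were under 1 CPM, so Bst1 met the filter of at least 1 CPM in 4 of 8 libraries only through IL-2-KO. None of its values was whole reads, and the cause of the fractions was not tested. Nampt, the rate-limiting enzyme gene of NAD salvage, rose 1.52-fold, from 55.2 ± 2.03 to 84.3 ± 7.08 CPM. Parp14 and Parp9, interferon-responsive genes of the PARP family, rose 2.07-fold and 1.57-fold, to 320 ± 40.7 and 192 ± 16.6 CPM. In replicates 1 and 2 alone Parp14 and Parp9 passed, and Nampt (limma adjusted p = 0.134) and Bst1 (0.107) did not.

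Art2b, which encodes the ART2.2 enzyme that acts on P2X7, was singled out after its values were seen. It was at 8.37, 7.37, 9.76 and 15.3 CPM in WT and at 33.9, 48.7, 17.1 and 63.3 CPM in IL-2-KO. The groups did not overlap, with IL-2-KO replicate 3 nearest to WT replicate 4. Art2b rose 3.604-fold (limma adjusted p = 0.00603, Benjamini-Hochberg). All 8 of its values were fractions of reads, and it has a closely similar neighbouring copy, so its level is uncertain.

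**Figure D4:**
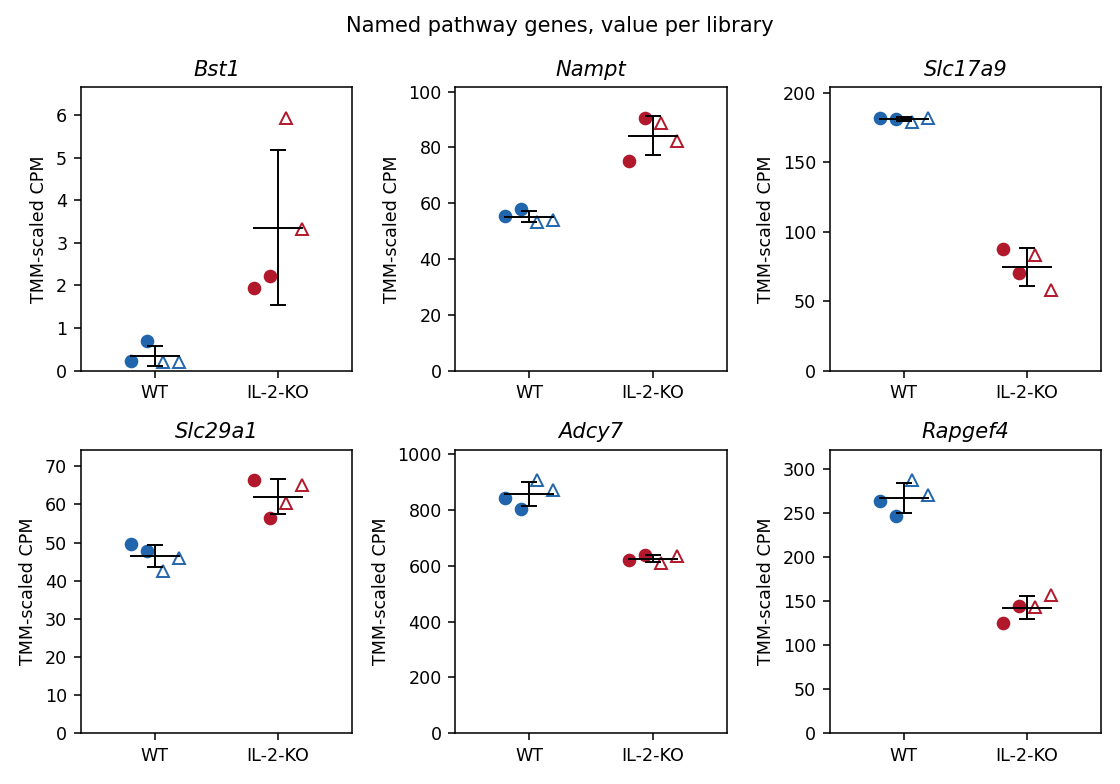
TMM-scaled CPM of 6 named pathway genes in each library (y axis, linear, from 0; blue WT, red IL-2-KO; filled circles replicates 1 and 2, open triangles replicates 3 and 4), with black bars at the mean ± SD of 4 libraries. The IL-2-KO points lie above all WT points for Bst1, Nampt and Slc29a1, and below them for Slc17a9, Adcy7 and Rapgef4.

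The Adora2a receptor acts through cyclic AMP. In the cyclic AMP list none of 25 tested genes rose, 3 fell and 22 did not pass, with a median log2 change of -0.05. Over all genes tested 19.2% passed, 11.1% higher and 8.03% lower. Adcy7, an adenylyl cyclase gene of lymphocytes, fell by 0.45 on the log2 scale, from 841, 804, 906 and 872 CPM in WT to 619, 637, 609 and 633 CPM in IL-2-KO (limma adjusted p = 0.00176). Rapgef4, which encodes the cyclic AMP sensor EPAC2, fell by 0.90, from 267 ± 17.0 to 143 ± 12.7 CPM. Pde4b, a phosphodiesterase gene, was at 135 ± 4.39 CPM in WT and 117 ± 5.75 in IL-2-KO (limma adjusted p = 0.0428), a call that was lost without any 1 library other than IL-2-KO replicate 2. In replicates 1 and 2 alone Rapgef4 passed, and Adcy7 (limma adjusted p = 0.302) and Pde4b (0.654) did not. Pde2a, another phosphodiesterase gene, did not pass (adjusted p = 0.0800), and IL-2-KO replicate 4, at 337 CPM, stood above the other IL-2-KO libraries, at 167 to 204 CPM.

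**Figure D5:**
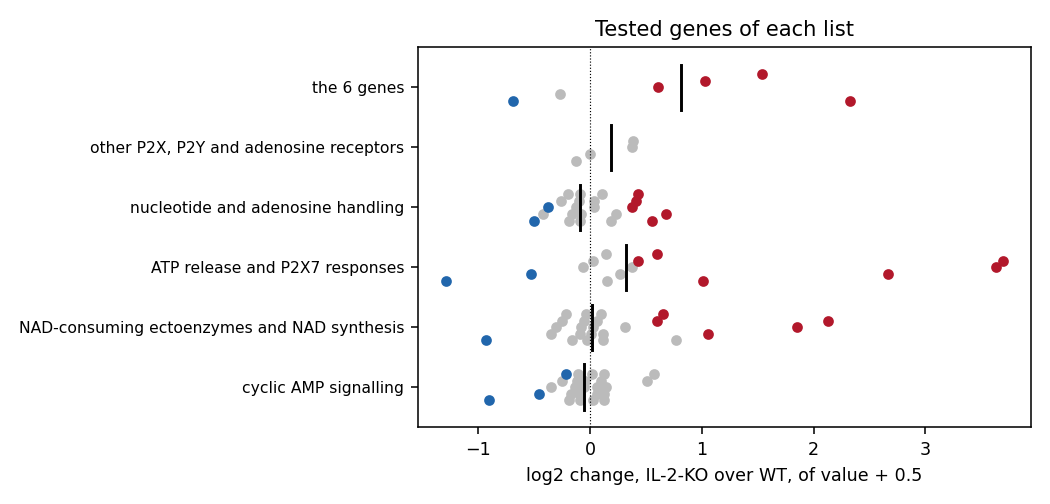
Log2 change from WT to IL-2-KO of value + 0.5 (x axis) for each tested gene (point) of the 6 lists, with a black line at each list's median; red rose, blue fell, grey did not pass. Most genes of the nucleotide, NAD and cyclic AMP lists lie near 0, whose medians are -0.09, 0.02 and -0.05.

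The genes whose values ran most like those of the changed members over the 8 libraries were found by the root mean square difference between centred log2 values, among genes with a mean of at least 5 CPM. Nearest to Entpd1 were Arsb, a lysosomal sulfatase gene (0.33), Ctla2a (0.33) and Klrk1, which encodes the activating receptor NKG2D (0.33). Klrk1 went from 36.8 to 160 CPM on average. Nearest to Nt5e were Ncf1, an NADPH oxidase subunit gene (0.20), the helicase and nuclease gene Dna2 (0.26) and Gbp11, a guanylate-binding protein gene (0.27). Like Nt5e, Ncf1 was lowest in IL-2-KO replicate 4 within its group, at 30.4 CPM against 49.1 to 67.4. Nearest to Cd38 were Lair1, an inhibitory collagen receptor gene (0.13), the sorting nexin gene Snx10 (0.15) and the kinesin gene Kif18a (0.16). Nearest to Adora2a were Dap (0.10), Calhm6 (0.11) and Vars, a valyl-tRNA synthetase gene (0.11). Nearest to P2rx4 were Zfp963 (0.08), Rbis (0.11) and Emc9, an endoplasmic reticulum membrane complex gene (0.11), and all 3 had their highest IL-2-KO value in replicate 3, as P2rx4 did. Likeness over 8 libraries of 2 groups is mostly likeness of the group difference. The genes were chosen by it over the same libraries, so a shared highest or lowest library is part of the choice.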

How the data were processed

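The values the authors deposited are a linear signal for each gene in each of 8 libraries, named as CPM after TMM scaling. Without stating roles, the submitters' processing notes name GRCm38, mm10, featureCounts, R 3.4.3 and limma 3.34.9. No source used here gives the aligner or the strand setting of the counting, and the kit was stranded per the labels. All 8 columns matched sample titles. Columns summed to 988292 to 1022950, so the unit is a scaled signal in place of the CPM expected, and the planned test was kept. In each library 54.6% to 65.0% of values under 20 were whole reads (tolerance 0.001) and 100% were whole hundredths of reads (tolerance 0.05 hundredths), so counts were partly fractional and no count test was run. Depths were 11.9 to 18.4 M (mega) recovered counts. No libraries were duplicates (chi-square per gene of at least 5.00 within groups).

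Entrez identifiers were matched to RefSeq symbols (11651 matched, 72 not). Gene coordinates came from RefSeq (GRCm38.p6), and exon lengths from the protein-coding transcripts of GENCODE M21. Values were log2(value + 0.5), genes had at least 1 CPM in at least 4 of 8 libraries, and limma 3.58.1 in R 4.3.3 (empirical Bayes with a trend) gave p-values adjusted by Benjamini-Hochberg over all 11530 genes, with a threshold of 0.05. The steps were tested on simulated data. Ratios were tested by exact permutation. The series' design text calls the samples biological replicates. The members, the gene lists and the naming rule were chosen with earlier results of these data known. Named were the 6 genes, the 4 genes of lowest adjusted p in each list, and the 3 nearest genes of each member that passed. The result for 1 gene that the rule names is not reported here.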

Additional observations from a re-analysis of the deposited data

Results flagged for a closer look

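A single library lay far from the other 3 of its group, by Dixon's test at the 95% level, in 8 of 84 groups of 4 values, covering the named genes and Art2b, and chance flags about 1 in 20. In IL-2-KO replicate 3 these were P2rx4, at 26.3 CPM against 18.2 to 18.6 in the others, Casp1 at 24.6 against 9.28 to 10.9, Plscr1 at 15.9 against 7.21 to 8.44, Adora3 at 2.86 against 1.81 to 1.87, and Zfp963 at 10.1 against 7.13 to 7.41. In WT replicate 2 they were Casp4, at 2.36 CPM against 0.181 to 0.359, Bst1, at 0.691 against 0.208 to 0.235, and Rbis, at 25.1 against 30.9 to 31.4. Zfp963 and Rbis were named for their likeness to P2rx4 over the same libraries, so the 8 flags are not independent. All 8 were in the 2 libraries with the highest dendritic cell and monocyte transcripts, 666 and 282 CPM of summed dendritic cell markers. The part of those cells in these values was not tested.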

How the results depend on the processing

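Under the alternatives run, Entpd1 and Nt5e kept their direction and passed wherever they were tested; Entpd1 was not tested with a minimum of 5 CPM. Cd38, P2rx4 and Adora2a also did, except with replicates 1 and 2 alone (many cells), where their log2 changes were 0.63, -0.74 and 0.40 and did not pass. There 384 genes passed (322 higher, 62 lower), and the counts passing were 0 of nucleotide handling, 4 of ATP release, 3 of NAD and 1 of cyclic AMP genes; that fit has 2 libraries per group. With array weights P2rx7 passed at -0.31, and 4359 genes passed (2240 higher, 2119 lower), with 10 NAD and 7 cyclic AMP genes; the cause was not tested. Leaving out 1 library at a time gave 1285 to 2205 genes passing (846 to 1295 higher, 439 to 938 lower), and a P2rx7 change from -0.41 to -0.18. With the replicate number as a block (replicate block) 1397 genes passed, 486 of them lower, the 5 members still passed, Pde2a passed, and Pde4b and Zfp963 did not. Same-numbered libraries deviated together with correlations of 0.08, -0.53, -0.40 and 0.39, and not every sample correlated best with its own number, so the numbers do not pair the samples.

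Changes near 0 turned sign without passing. For Adora3 they were 0.00 in the comparison reported, -0.00055 with a pseudocount of 2, -0.026 with a median shift, -0.22 with quantile normalization, -0.042 with array weights, -0.29 with replicates 1 and 2 alone, -0.0081 with both of the libraries rich in other cells' transcripts removed, and -0.13 to 0.12 over the libraries left out in turn. For P2rx1 (-0.13) they were 0.22 with replicates 1 and 2 alone and -0.33 to 0.060 over the libraries left out in turn. Scaling moved the median log2 change of all genes from -0.01 to -0.05 at most. Entpd1 in WT and Bst1 rest on few reads, 18 to 27 and 3 to 8 per WT library.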
